A study of Homo sapiens with 10 samples.

Results

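EWS peaks of VCaP cells that lie outside the crowded parts of the genome were described here. Their distance to ERG is given, and their overlap with EWS and ERG lists of a second prostate cell line. The peaks were chosen by position. A peak of the VCaP EWS list was taken when its centre lay in a 1 Mb bin of genome build hg19 that held fewer than 10 centres of the VCaP EWS and VCaP ERG lists together, with chromosome 19 left out. By this rule 2040 of the 9500 VCaP EWS peaks (21.5%) were in sparse bins, and 7177 were in bins at or over 10 (crowded bins). The other 283 peaks were on chromosome 19, 50 of them in sparse bins. The VCaP EWS and ERG positions thus chose the members, and every value that rests on these 2 lists alone is a description.

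The series holds 10 ChIP-seq samples, of which 7 have a peak list and 3 are inputs that were not used here. VCaP is a prostate cancer line, and its EWS list came from an antibody against EWS (clone G5) and its ERG list from one against ERG (clone 9FY), in untreated cells. RWPE1 is a normal prostate line that stably expressed introduced ERG under puromycin or hygromycin selection, either the point mutant ERG P436A or wild-type ERG. The promoter of the introduced ERG and whether the lines were clonal are not stated in the labels. The RWPE1 lists are EWS with ERG P436A (1786 peaks), EWS with wild-type ERG (5703), ERG P436A (1746) and wild-type ERG replicates 1 and 2 (1901 and 1953). The VCaP ERG list holds 7712 peaks, which are 284 to 184765 bp wide. Wild-type ERG in RWPE1 is the only group with more than 1 list, and nothing says that its replicates were separate cultures. A list gives the chromosome, start and end of each peak and no height or score, so the read depth behind a peak is unknown.

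EWS, the product of EWSR1, is an RNA-binding protein of the FET family whose amino-terminal part can activate transcription. In Ewing sarcoma that part is joined by translocation to the DNA-binding domain of an ETS factor, most often FLI1 and sometimes ERG. ERG binds DNA at sites with a GGAA core and is overexpressed in many prostate cancers, VCaP among them, through the TMPRSS2-ERG fusion. The study asks about EWS as a co-activator of ERG, and the distance from each EWS peak to ERG is therefore given. Peaks are named by hg19 position alone, since genes and sequence of that build were not used here.

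The sparse-bin EWS peaks were spread over many bins, as the limit on peaks per bin requires. They lay in 926 bins, 72.5% of the 1278 bins with an EWS peak outside chromosome 19, while the 7177 crowded-bin peaks lay in 352 bins. A single member was found in 464 of the bins, 2 members in 200 and 3 to 9 members in 262. The mean was 2.20 members per bin. The 108 bins with 5 or more members held 647 of the peaks. It took 210 bins to reach 50% of the sparse-bin peaks, against 35 bins for the crowded-bin peaks. The rule limits the peaks in a sparse bin and places every fuller bin in the crowded set. Low numbers of members per bin and this contrast between the sets therefore follow from the rule. A VCaP ERG peak was present in 634 of the 926 bins, and these held 1431 members (70.1%), whereas 609 members were in bins without any. A bin next to a crowded bin held 562 members (27.5%).

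On either side of the limit, bins with 8 peaks held 224 EWS peaks and bins with 9 held 259, against 208 in bins with 10 and 264 in bins with 11. The median distance to ERG was 99928 bp and 129894 bp in bins with 8 and 9, and 88972 bp and 83998 bp in bins with 10 and 11. ERG overlapped 1 and 3 of these EWS peaks inside the limit, and 3 and 4 of those outside it.

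Sparse-bin peaks were found on all 24 chromosomes considered, counting Y and the mitochondrial chromosome, and crowded-bin peaks on 19. Chromosome 12 held most (237), followed by chromosome 11 (209) and chromosome 8 (193). These 3 carried 31.3% of the sparse-bin peaks, while the 3 leading chromosomes of the crowded-bin peaks (11, 8 and 17) carried 50.7% of those. To reach 50%, the sparse-bin peaks needed 6 chromosomes and the crowded-bin peaks 3. The rule splits the sets by the density of these same peaks, so chromosomes with dense blocks weigh in the crowded set by design. Chromosome 17 held 2.30% of the sparse-bin peaks and 12.4% of the crowded-bin peaks. Chromosome 13 held 17 sparse-bin and 425 crowded-bin peaks.

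Other chromosomes had EWS mostly as sparse-bin peaks. On chromosome 3, 175 of 196 EWS peaks were in sparse bins (89.3%), on chromosome 7 it was 170 of 230 (73.9%), and on chromosome 18 it was 52 of 59 (88.1%). All EWS peaks of chromosomes 2, 10, 16, Y and M were in sparse bins, 77 peaks in total. Chromosome 2 had only 22 EWS peaks and chromosome 16 only 2, beside 133 and 41 VCaP ERG peaks. Relative to the number of bins that had a peak in any of the 7 lists, members were densest among the nuclear chromosomes on chromosome 12, with 181 per 100 such bins, followed by chromosomes 22 (164) and 11 (163). The mitochondrial chromosome had 2 members in its 1 bin. They were at 10.1 per 100 bins on chromosome 2 and 2.70 on chromosome 16.

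**Figure D1:**
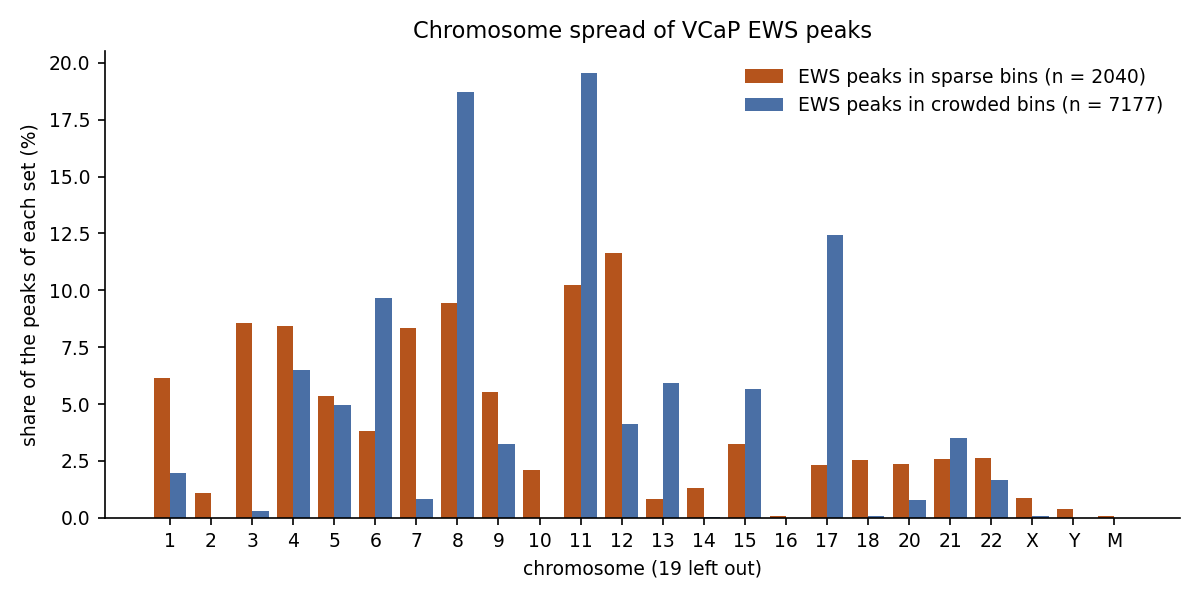
Share of the 2040 sparse-bin EWS peaks (orange) and of the 7177 crowded-bin EWS peaks (blue) on each chromosome, in percent of each set. Sparse-bin peaks reached at most 11.6% on a chromosome (12), whereas chromosomes 8, 11 and 17 stand out among the crowded-bin peaks. The sets were split by peak density, so the contrast rests on the rule.

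Neighbouring EWS peaks were far apart. The median gap from a sparse-bin peak to the nearest other VCaP EWS peak was 129594.5 bp, and it was 5566 bp for crowded-bin peaks, a difference that follows from the rule. Even so, 170 sparse-bin peaks (8.33%) had another EWS peak within 10 kb and 22 within 1 kb. The closest pair lay on chromosome 12, 24866102 to 24866595 and 24867112 to 24867602, with a gap of 516 bp. The next pair, on chromosome 1 from 145070408 to 145070908 and from 145071456 to 145071954, was 547 bp apart. A pair on chromosome 20, at 17474066 to 17474562 and 17475170 to 17475667, had a gap of 607 bp. On chromosome Y, 5 members lay between 59004909 and 59030046, in a bin with 2 VCaP ERG peaks.

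The peaks did not differ much in width, but stood later in the list. Median width was 487 bp (quartiles 474 and 496) for sparse-bin and 491 bp (481 and 497) for crowded-bin peaks, and no peak exceeded 501 bp. Median place in the list was 6096 for sparse-bin and 4324 for crowded-bin peaks. Of the first 950 peaks listed 28 (2.95%) were sparse-bin peaks, and of the last 950 it was 320 (33.7%). The order of the list is not documented as a ranking. The first 5 members stood at places 3, 4, 6, 12 and 248. They were at chromosome X, 67058209 to 67058707, chromosome Y, 28816912 to 28817412, chromosome 5, 159350135 to 159350634, chromosome 11, 93970947 to 93971447, and, as the last of them, chromosome 1, 142536147 to 142536634. The first 3 overlapped a VCaP ERG peak.

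**Figure D2:**
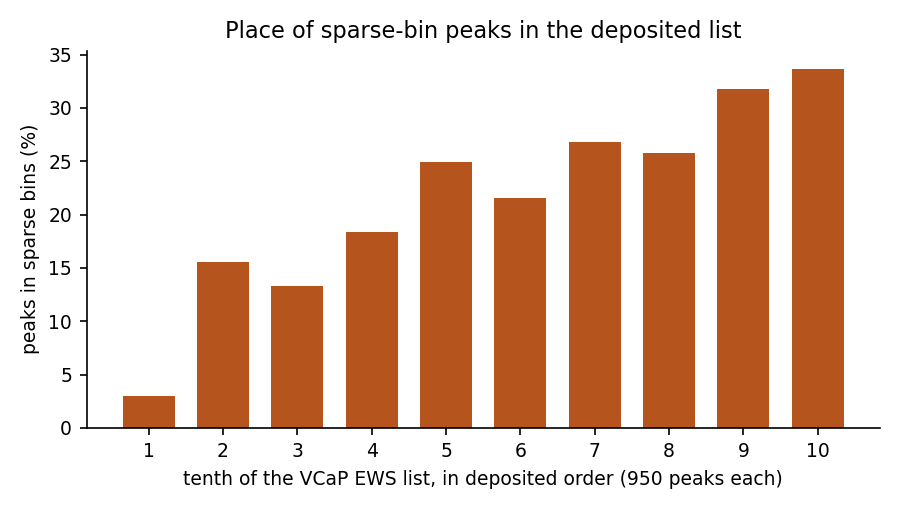
Percent of EWS peaks that were in sparse bins in each successive block of 950 peaks of the VCaP EWS list, in deposited order. The share was 2.95% in the first block and 33.7% in the last.

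EWS peaks in sparse bins were seldom at ERG. A VCaP ERG peak overlapped 16 of the 2040 members by at least 1 bp (0.784%, exact 95% binomial interval 0.449% to 1.27%), 953 of the 7177 crowded-bin peaks (13.3%, 12.5% to 14.1%) and 10.3% of all VCaP EWS peaks. As the rule limits the number of ERG peaks in a bin, this gap between the sets is built in. The local background was therefore read by moving all members together by fixed steps of 20 kb, out to 200 kb on both sides, which gave 20 shifted copies of the set. At the shifted positions 4 to 10 peaks overlapped ERG, with a mean of 6.30. The 16 overlaps at the true positions were 2.54 times that mean (1.45 to 4.12, a Poisson interval for counting error only) and above each of the 20 shifts. For crowded-bin peaks 953 overlaps stood against a mean of 752.0 at the shifted positions, a ratio of 1.27 (1.19 to 1.35). Their shifted counts ran from 685 at -200 kb to 865 at 20 kb, so this ratio depends on the offsets used. In shares, 0.784% stood against 0.309% at the shifts for sparse-bin peaks, and 13.3% against 10.5% for crowded-bin peaks. The gap in share was thus larger for crowded-bin peaks, though their ratio was lower. The ratio for sparse-bin peaks was 5.33 (2.30 to 10.5) with sparse bins defined below 5 peaks and 3.87 (2.00 to 6.76) without bins beside a crowded bin. With the limit at 20 peaks the ratio was 2.24 (1.60 to 3.05). On chromosomes 1 to 22 and X it was 2.22 (1.215 to 3.73), and without chromosomes X and Y 2.24 (1.16 to 3.92). The excess was uneven. Chromosomes 1, 5, 9 and 20, set apart below for the RWPE1 lists, had 8 overlaps in 395 members against a shift mean of 1.15. The other chromosomes had 8 in 1645 members, against 5.15. Bins with 2 to 4 peaks had 8 overlaps against 1.45, and bins with 5 to 9 peaks 8 against 4.80. Beside a crowded bin it was 4 against 3.20. No test was run on the difference between sparse-bin and crowded-bin ratios, since peaks of 1 list are not replicates.

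Of the windows examined, counts stood above the shifts up to 10 kb. Within 1 kb of an ERG peak lay 26 members, against a mean of 15.4 at the shifted positions (9 to 24), and within 10 kb 109 members, against 85.2 (68 to 105). Both counts exceeded all 20 shifts. Within 50 kb the number was 365, against 353.3 (326 to 386), and within 100 kb it was 609, against 606.8 (582 to 634), both inside the range of the shifts. The median distance to ERG was 222899 bp (quartiles 81640 bp and 514800 bp), and the shifted sets had medians of 210843 bp to 223795.5 bp. The median distance of the members thus lay within the range of positions nearby. The crowded-bin peaks had a median distance of 11880 bp. No ERG peak lay within 1 Mb of 250 members, among them 2 on the mitochondrial chromosome, which had no VCaP ERG peak at all.

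**Figure D3:**
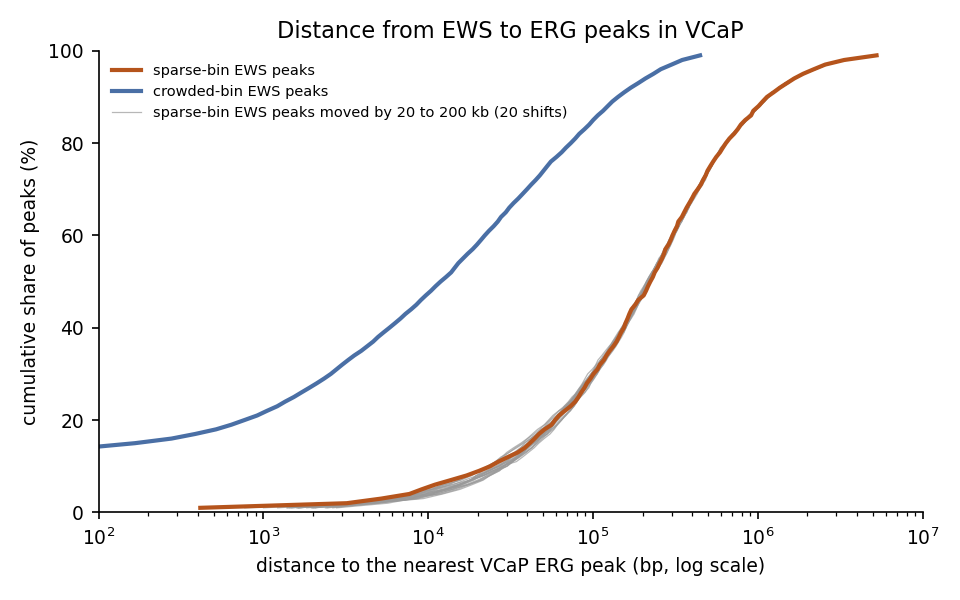
Cumulative share of EWS peaks by distance to the nearest VCaP ERG peak (bp, log scale) for sparse-bin peaks (orange), crowded-bin peaks (blue) and the sparse-bin peaks moved by 20 to 200 kb (grey, 20 shifts). The orange curve lies on the grey ones at its median of 222899 bp, and the blue curve has its median at 11880 bp.

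**Figure D4:**
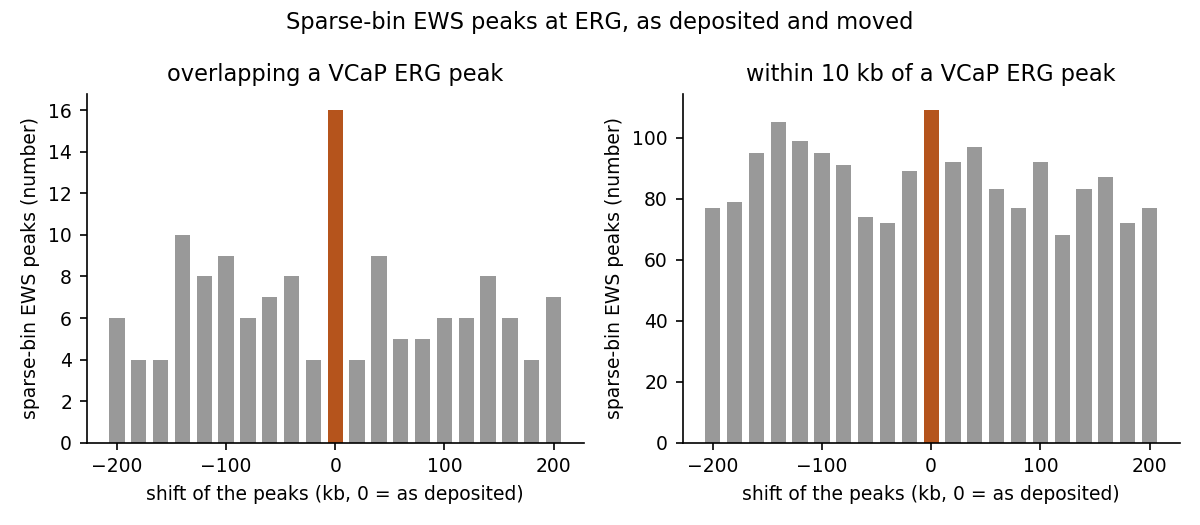
Number of sparse-bin EWS peaks that overlap a VCaP ERG peak (left) or lie within 10 kb of one (right), as deposited (orange, shift 0) and after moving all peaks by the distance on the x axis in kb (grey). The bars at shift 0 reach 16 and 109, and the highest grey bars 10 and 105.

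The 16 members with ERG lay on 8 chromosomes and at 16 different ERG peaks. The placing of reads at these regions was not tested. Chromosome 5 had 4, chromosome 1 had 3, chromosomes X, Y and 4 had 2 each, and chromosomes 3, 7 and 20 had 1 each. Chromosomes 11, 12 and 8, which held most members, had none. The ERG peaks were 494 to 21498 bp wide, with a median of 886 bp, and 1 of them was over 2000 bp. Of the EWS peaks 6 lay wholly inside the ERG peak, and the smallest overlap was 113 bp. EWS and ERG centres were 53 to 8997 bp apart, with a median of 271.5 bp.

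The regions varied in how the peaks lay to each other. The widest ERG region, at chromosome X, 67056706 to 67078203, stood at place 21 of the ERG list and enclosed the EWS peak at place 3, whose centre was 8997 bp from its own. At chromosome 5, 159349478 to 159351454 (ERG place 48), the EWS peak at place 6 was centred 81 bp from the ERG centre. The closest centres, 53 bp apart, were at chromosome X, where an EWS peak from 15316325 to 15316756 lay inside an ERG peak from 15316032 to 15316944. A second region on chromosome 5, with EWS at 177002843 to 177003341 and ERG at 177002580 to 177003797, had centres 97 bp apart. Centres were within 100 bp of each other in these 2 regions and the one at 159350135 to 159350634.

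The other 12 members with ERG stood at places 4 to 8356 of the EWS list. In its first part they were at chromosome Y, 28816912 to 28817412, chromosome 5, 107176287 to 107176785, and chromosome 1, 208136439 to 208136916. Later came chromosome 1, 234913568 to 234914063, chromosome 3, 156878019 to 156878516, and chromosome 5, 174081510 to 174082008. Places 7956 to 8356 held chromosome Y, 59023731 to 59024230, chromosome 1, 17087516 to 17088016, chromosome 20, 29611772 to 29612257, chromosome 4, 52557 to 53056 and 89204529 to 89205016, and chromosome 7, 66118855 to 66119354. Among members at places 1 to 3167 of the EWS list 7 of 389 overlapped ERG (1.80%, 0.727% to 3.67%). At places 3168 to 6333 it was 1 of 714 (0.140%, 0.00355% to 0.778%), and from place 6334 on 8 of 937 (0.854%, 0.369% to 1.68%). The means at the shifted positions were 1.90, 1.65 and 2.75, so the count of the middle part was below its shift mean.

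Overlap of VCaP EWS sites with RWPE1 peaks was read with lists that the rule had not used. A member at a peak of any of these lists, of EWS or of ERG, is called recurrent. An RWPE1 peak of any of the 5 lists overlapped 76 sparse-bin peaks (3.73%, 2.95% to 4.64%) and 139 crowded-bin peaks (1.94%, 1.63% to 2.28%), against 2.33% of all VCaP EWS peaks. The other 1964 sparse-bin peaks were in none. At the shifted positions the mean was 9.45 members (5 to 14), so the count was 8.04 times the local level (6.34 to 10.1). For crowded-bin peaks the ratio was 3.41 (2.87 to 4.03). The intervals of the shares and of the ratios did not overlap between the sets. These and the later intervals count each peak as independent, so whether they overlap is a description and not a test.

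By antibody, members were found in lists of EWS and of ERG alike. The EWS list of RWPE1 with ERG P436A overlapped 19 sparse-bin peaks (0.931%, 0.562% to 1.45%) and 30 crowded-bin peaks (0.418%, 0.282% to 0.596%), with 0.516% over all VCaP EWS peaks. The EWS list with wild-type ERG overlapped 24 sparse-bin peaks (1.18%, 0.755% to 1.75%) and 47 crowded-bin peaks (0.655%, 0.482% to 0.870%), with 0.747% over all. Over local shifts the sparse-bin count was 14.6 times the mean of 1.30 with P436A (8.80 to 22.8) and 5.52 times the mean of 4.35 with wild-type ERG (3.54 to 8.21). The list with P436A is the shorter, and a member lay at 1.06% of its 1786 peaks, against 0.421% of the 5703 peaks found with wild-type ERG. Both EWS lists had 2 members in common.

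In the ERG lists of RWPE1, ERG P436A was at 17 sparse-bin peaks (0.833%, 0.486% to 1.33%) and 28 crowded-bin peaks (0.390%, 0.259% to 0.563%), with 0.505% over all VCaP EWS peaks. Wild-type ERG replicate 1 was at 8 sparse-bin peaks (0.392%, 0.169% to 0.771%) and 15 crowded-bin peaks (0.209%, 0.117% to 0.345%), with 0.263% over all. Replicate 2 was at 26 sparse-bin peaks (1.27%, 0.834% to 1.86%) and 45 crowded-bin peaks (0.627%, 0.458% to 0.838%), with 0.758% over all. Either replicate was at 32 members (1.57%, 1.08% to 2.21%; 0.937% over all), and 2 members were in both. The intervals of the replicate lists did not overlap, and the count for ERG P436A lay between those of the wild-type replicates. The ratios to local shifts were 13.6 (7.92 to 21.8) for P436A, 4.71 (2.03 to 9.27) for replicate 1 and 17.3 (11.3 to 25.4) for replicate 2, from means of 1.25, 1.70 and 1.50.

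**Figure D5:**
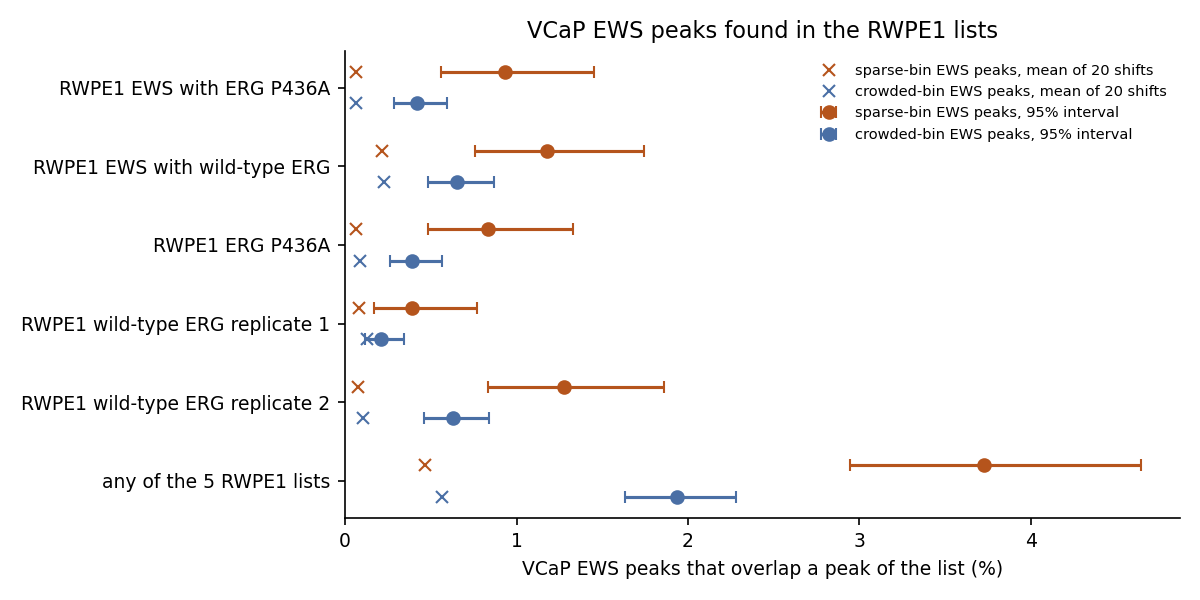
Percent of VCaP EWS peaks in sparse bins (orange) and crowded bins (blue) that overlap each RWPE1 list, with exact 95% binomial intervals (circles and bars) and the mean share of the 20 shifts (crosses). For all lists together the sparse-bin share was 3.73% and the crowded-bin share 1.94%, and in each of the 5 lists the sparse-bin share was the higher, with intervals that overlap for all 5.

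Most recurrent members were in a single list. Of the 76, 64 were in 1 RWPE1 list, 6 in 2 and 6 in 3. EWS lists alone accounted for 32, ERG lists alone for 35, and 9 were in lists of both antibodies. EWS with P436A was the sole list for 14 members and EWS with wild-type ERG for 18. ERG P436A was the sole list for 10, wild-type ERG replicate 1 for 2 and replicate 2 for 20. Just 1 member, at chromosome 4, 52557 to 53056, overlapped both a VCaP ERG peak and an RWPE1 list (ERG P436A).

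The 6 members in 3 lists fell into distinct patterns. At chromosome 1, 166246268 to 166246764, and chromosome 20, 37220220 to 37220684, the lists were EWS with P436A, ERG P436A and wild-type ERG replicate 2. The first was the only peak of its bin and 1083986 bp from the nearest VCaP ERG peak, and the second was 7570 bp from one. At chromosome 10, 127579702 to 127580200, they were EWS with wild-type ERG and both ERG replicates, 6613443 bp from VCaP ERG. At chromosome 8, 141600995 to 141601478, they were EWS with wild-type ERG, ERG P436A and wild-type ERG replicate 1. None of these 4 had VCaP ERG at the same place.

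The remaining 2 were neighbours on chromosome 9, at 68415307 to 68415801 and 68431490 to 68431983, both in the 2 EWS lists and in ERG replicate 1. Between them, 68425824 to 68426323 was in EWS with wild-type ERG and ERG replicate 1. The bin from 68 to 69 Mb held 6 members, 3 of them in RWPE1 lists, and 17 RWPE1 peaks, and its members in RWPE1 lists were 9271175 to 9287357 bp from the nearest VCaP ERG peak. In hg19 this stretch borders the heterochromatin of chromosome 9 and is rich in duplicated sequence. The placing of reads was not tested there or at any other region named here.

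Recurrent members were unevenly spread over chromosomes. Chromosome 20 had 12 of its 48 members in an RWPE1 list (25%, 13.6% to 39.6%), against a mean of 1.70 at the shifted positions. They lay in 10 bins between 15734217 and 61083788, with 4 in each EWS list, 2 in ERG P436A, 0 in wild-type ERG replicate 1 and 4 in replicate 2. Chromosome 9 had 11 of 113 (9.73%, 4.96% to 16.7%), chromosome 5 had 10 of 109 (9.17%, 4.49% to 16.2%) and chromosome 15 had 6 of 66 (9.09%, 3.41% to 18.7%). Chromosome 17 had 4 of 47 and chromosome 2 had 2 of 22. Over local shifts the ratio on chromosome 20 was 7.06, below the 8.04 of all members. It was 11.58 on chromosome 9, 8.70 on 5, 30.0 on 15 and 16.0 on 17. The shift means on chromosomes 15 and 17 were only 0.20 and 0.25. Chromosome 12, with most members, had 3 of 237, and chromosomes 13, 14, 16, 18, 22, X and Y had 0 of their members in these lists. Chromosomes X, Y and 22 held only 12, 18 and 27 RWPE1 peaks.

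Chromosomes 1, 5, 9 and 20 held 6999 of the 13089 peaks of the 5 RWPE1 lists (53.5%). They had 1045 to 2356 RWPE1 peaks per 100 bins with a peak in any list, and the other chromosomes 22.6 to 511. The shares were therefore also read away from these 4, a split made with the recurrence on them known. On those 4 chromosomes 38 of 395 sparse-bin peaks (9.62%, 6.90% to 13.0%) and 44 of 785 crowded-bin peaks (5.61%, 4.10% to 7.45%) were in an RWPE1 list. On the others it was 38 of 1645 sparse-bin peaks (2.31%, 1.64% to 3.16%) and 95 of 6392 crowded-bin peaks (1.49%, 1.20% to 1.81%), and these intervals overlapped. Over local shifts the sparse-bin count was 8.84 times the mean on the other chromosomes and 7.38 times on the 4.

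Crowding in RWPE1 was read too. The classes rest on the same RWPE1 peaks, so a higher share in bins with more of them was built in. Bins with 10 or more RWPE1 peaks held 164 members (8.04%), of which 32 were in an RWPE1 list (19.5%, 13.7% to 26.4%), and 1269 crowded-bin peaks (17.7%), of which 80 were (6.30%, 5.03% to 7.78%). In bins with 1 to 9 RWPE1 peaks it was 44 of 1480 sparse-bin peaks (2.97%, 2.17% to 3.97%) and 59 of 5330 crowded-bin peaks (1.11%, 0.844% to 1.43%). Over local shifts the sparse-bin ratio was 7.03 in bins with 10 or more RWPE1 peaks and 9.17 in bins with 1 to 9. For crowded-bin peaks it was 3.85 and 2.98. Within each class of RWPE1 crowding the sparse-bin share was the higher. The intervals did not overlap, but no test was run on the difference. Members beside a crowded VCaP bin were recurrent in 26 of 562 cases (4.63%, 3.04% to 6.70%), and the others in 50 of 1478 (3.38%, 2.52% to 4.44%).

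Recurrence was also read against the presence of ERG in the VCaP bin. Of the members in bins with a VCaP ERG peak 55 of 1431 were in an RWPE1 list (3.84%, 2.91% to 4.97%), and of those in bins without 21 of 609 (3.45%, 2.15% to 5.22%), with intervals that overlapped. Along the EWS list the share was 3.60% (1.98% to 5.97%) for members at places 1 to 3167, 1.96% (1.08% to 3.27%) at places 3168 to 6333 and 5.12% (3.80% to 6.74%) from place 6334 on. The same parts of the list gave 1.40%, 1.54% and 3.07% for crowded-bin peaks. For members, the intervals of the middle and last parts of the list did not overlap. Over local shifts the ratio for members was highest in the first part, with 10.77, 5.185 and 8.807 in list order. For crowded-bin peaks it was 2.559, 2.951 and 4.745. In bins with and without a VCaP ERG peak the ratios for members were 7.237 and 11.35. None of these differences was tested.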

How the data were processed

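Each list is a deposited file with 3 columns per peak (chromosome, start and end in base pairs), made by the authors from 1 ChIP-seq sample. The submitters' processing notes name the build hg19 and the aligner Bowtie2 (version 0.12.8). Which peak caller, threshold and control applied is not given in the sources used here. Starts were read as 0-based and are printed 1-based.

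Samples were grouped by their titles. Overlap meant at least 1 shared bp, and distance was measured from edge to edge. Local shifts moved all members by the same offset (20 to 200 kb in steps of 20 kb, both ways). Of the 40800 shifted positions 2.20% fell in a crowded bin and 74 began before the chromosome start, and assembly gaps were not removed. Shares carry Clopper-Pearson 95% intervals and ratios carry Poisson intervals of the observed count, both for counting error only. No p-value was computed, since no group but 1 has replicate lists and peaks are not replicates.

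Regions named were all members with a VCaP ERG peak, all in 3 or more RWPE1 lists, the first 5 listed, the 3 closest pairs and the 3 chromosomes with most members. The groups on chromosomes Y, 9 (68 to 69 Mb) and 20, and the other chromosomes named, were picked with their values in view. The members, and the measures described, were chosen with earlier results of these data known. Plans that needed hg19 genes or sequence were not run. The overlap and distance steps were tested on simulated lists. Python 3.11.15, NumPy 2.4.6, pandas 2.3.3, SciPy 1.17.1 and matplotlib 3.10.9 were used.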

Additional observations from a re-analysis of the deposited data

How the results depend on the processing

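Of 238 values under 21 alternatives, 202 stayed inside the interval of the main value and 36 moved. For values without an interval, staying meant within 1.5 times of the main value. Change of direction was not assessed. All were values of sparse-bin peaks, so the contrast with crowded-bin peaks was not among them. With sparse bins defined below 5 peaks there were 824 members, a median ERG distance of 355261 bp and an ERG overlap of 5.33 times the shifts. Shares were then 0.485% for EWS with P436A, 0.485% for ERG P436A and 2.91% for any RWPE1 list. The ratios were 73.3 (36.6 to 131) for wild-type ERG replicate 2, 26.0 (13.8 to 44.5) for either replicate and 10.2 (6.54 to 15.2) for any list. These intervals leave out the error of the shift means, which were small. Below 20 peaks there were 3747 members, 41.1% of them on 3 chromosomes, at a median of 131666 bp. With reciprocal overlap of 0.5 the ratios were 24.3 for EWS with P436A, 9.50 for EWS with wild-type ERG, 27.7 for replicate 2 and 13.1 for any list, and the shares 0.147% for replicate 1 and 0.980% for either replicate. The ratio for replicate 1 with this reciprocal overlap was 3.75 (0.7733 to 10.96), an interval that included 1. Shifts of 220 to 400 kb gave a ratio of 10.2 for any list. Leaving out wild-type ERG replicate 1 or 2 gave shares of 0.392% to 1.27% for either replicate and 2.75% to 3.63% for any list, and ratios of 4.71 to 17.3 for either replicate, the lower ones without replicate 2.

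The next alternatives were chosen after seeing the data. Without bins beside a crowded bin the median ERG distance was 250017 bp. In bins with fewer than 10 RWPE1 peaks the shares were 0.426% for EWS with wild-type ERG, 0.426% for ERG P436A, 0.160% for replicate 1, 1.01% for either replicate and 2.35% for any list. Without chromosomes 1, 5, 9 and 20 they were 0.547% for EWS with P436A, 0.730% for EWS with wild-type ERG, 0.365% for ERG P436A, 0.790% for replicate 2, 0.912% for either replicate and 2.31% for any list, and the ratio for EWS with P436A was 25.7. The ratio for replicate 1 in bins with fewer than 10 RWPE1 peaks was 2.857 (0.5892 to 8.35), an interval that included 1. The cause was not tested for any of these.

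Under the alternatives other than the limit of 5, the ERG overlap was between 2.22 (chromosomes 1 to 22 and X) and 3.87 (no bins beside a crowded bin) times the shifts. Leaving out chromosomes 1, 5, 9 and 20 was not among the alternatives for ERG. On the other chromosomes 8 overlaps stood against a shift mean of 5.15. The main ERG ratio of 2.54 rests on 16 peaks, and every RWPE1 list on 8 to 26. Depth is unknown, so a peak missing from a list says nothing of weaker binding. Alternatives that needed genes or sequence of hg19 were not run. No paired analysis was possible because no result comes from a test and 1 group alone has 2 lists.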
